A study of Homo sapiens with 10 samples.

Results

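The subject of this report is a set of 1164 unannotated loci that lie close to genes in HEK293 cells, a human embryonic kidney line whose derivative used here is named 293ATOA in the methods of the study. The members are assembled transcription units to which the authors' assembly gave a number only (XLOC_ and digits) and no gene name. They were chosen by a rule on position and level. Each lies on an autosome, overlaps no named locus, lies within 5000 bases of one, and has an FPKM of at least 0.5 in at least 1 of the 5 groups. FPKM counts fragments relative to transcript length and to all mapped fragments of the library, so it is a relative level, and RNA from fewer cells and less RNA per cell cannot be told apart. The table holds 30809 assembled genes, of which 5704 are unannotated. Of the 16128 autosomal loci that reach 0.5 FPKM, 2550 are unannotated. The members are 1164 of these 2550, another 584 overlap a named locus, and 802 lie beyond 5000 bases of any named locus. Without the FPKM minimum the set would hold 2300 loci.

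Polyadenylated RNA was sequenced in 10 libraries, 2 in each of 5 groups. Nuclear RNA came from cells expressing LALA, from siPAP cells and from control cells, and total RNA came from siPAP cells and from control cells. In siPAP cells, siRNAs against both canonical poly(A) polymerases, PAPα and PAPγ, were present for 3 days. LALA is a myc-tagged double point mutant of PABPN1, the protein that coats poly(A) tails in the nucleus, which binds RNA but does not stimulate these polymerases. A stable cell line expressed it for 3 days from a tetracycline-responsive promoter. The sources name both siRNA-treated control cells and the untreated parental line as the control of LALA, so LALA, the stable line and the control treatment cannot be told apart. The nuclear fraction is the detergent-insoluble pellet, which is enriched for chromatin-associated and nuclear speckle RNA and loses soluble nuclear material.

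The promoters of many mammalian genes fire in both directions, and the RNA made in the direction opposite to the gene (a PROMPT, or promoter upstream transcript) is usually short-lived. Transcription also runs on past the 3′ ends of genes. In the nucleus, PABPN1 bound to a poly(A) tail stimulates PAPα and PAPγ to lengthen the tail, and RNAs that stay in the nucleus are then open to degradation by the exosome. Both treatments were meant to reduce this tail extension, and the comparisons ask which of the loci beside genes differ in steady-state level under them.

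The targeted genes were checked first. PAPOLA, which encodes PAPα, had 11.0 FPKM in siPAP total RNA, against 79.3 FPKM in control total RNA, and 11.2 FPKM in siPAP nuclear RNA, against 61.7 FPKM in control nuclear RNA. PAPOLG, which encodes PAPγ, had 3.64 FPKM in siPAP total RNA, against 12.2 FPKM in control total RNA, and 4.46 FPKM in siPAP nuclear RNA, against 10.6 FPKM in control nuclear RNA. The locus that holds PABPN1 had 162 FPKM in LALA nuclear RNA, against 89.1 FPKM in control nuclear RNA, and reads of the transgene can count there. Of the HEK293 markers, LIN28B and IGF2BP1 were well expressed and NEFL was present, while PAX2 and NEFM stayed below 0.5 FPKM. Markers of leukocytes, hepatocytes, endothelium and renal tubule (PTPRC, ALB, PECAM1, UMOD) were at or below 0.0896 FPKM in all groups. The deposited table holds 1 mean per group and no values of single libraries. No replicate spread, test or depth can therefore be given, and every ratio is a description of group means. A locus is called higher or lower where the means differ at least 2-fold and the higher one is at least 1 FPKM, and a locus listed at 0 in a group gets no ratio.

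The bases at the edges of the loci show what kind of sequence they span. For 3 of the 12 loci with the largest changes, whose printed windows touch no annotated UTR, the bases are shown at the edge next to the gene, read on the strand that runs away from the gene, with each CpG in capitals. XLOC_010804 ends 12 bases from the 5′ end of UQCRC2, a subunit of respiratory complex III, and its near edge is chr16:21964222-21964371 on the minus strand of GRCh37. XLOC_004978 lies 383 bases from the 5′ end of HSPA8, a constitutive HSP70 chaperone, and its near edge is chr11:122933285-122933434 on the plus strand. XLOC_007636 lies 437 bases from the 5′ end of ANKRD10, and its near edge is chr13:111567956-111568105 on the plus strand.
XLOC_010804 near edge: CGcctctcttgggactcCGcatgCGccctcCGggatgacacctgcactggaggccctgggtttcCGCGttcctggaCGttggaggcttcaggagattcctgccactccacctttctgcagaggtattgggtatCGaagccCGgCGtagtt
XLOC_004978 near edge: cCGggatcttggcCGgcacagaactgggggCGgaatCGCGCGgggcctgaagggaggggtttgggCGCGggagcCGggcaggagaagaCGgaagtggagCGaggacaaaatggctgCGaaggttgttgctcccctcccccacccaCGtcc
XLOC_007636 near edge: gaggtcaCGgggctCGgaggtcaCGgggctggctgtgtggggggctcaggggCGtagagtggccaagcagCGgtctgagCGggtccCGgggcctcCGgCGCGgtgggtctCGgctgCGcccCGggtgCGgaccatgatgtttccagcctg
These 150 bases hold 10, 13 and 14 CpG pairs in the order shown, and their GC content is 61.3%, 68.0% and 73.3%.

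The opposite edges of the loci, read on the same strand, are shown because a transcript made by canonical 3′ end formation would carry a poly(A) signal there. The first 3 lines are the far edges of the same loci, at chr16:21961624-21961723 (minus strand), chr11:122933962-122934061 (plus strand) and chr13:111570649-111570748 (plus strand) of GRCh37. None of the 3 holds AATAAA or ATTAAA in these 100 bases. The last 2 lines are loci at the 5′ side, called higher in all 3 comparisons, that do hold AATAAA, in capitals, within 50 bases of the far edge. They are XLOC_016700 near ACVR2A, an activin receptor (chr2:148600738-148600837, minus strand), and XLOC_000604 near SYDE2 (chr1:85669274-85669373, plus strand).
XLOC_010804 far edge: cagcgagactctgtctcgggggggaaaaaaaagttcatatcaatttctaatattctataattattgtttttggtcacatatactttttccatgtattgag
XLOC_004978 far edge: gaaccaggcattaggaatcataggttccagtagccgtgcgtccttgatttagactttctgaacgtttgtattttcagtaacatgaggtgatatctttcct
XLOC_007636 far edge: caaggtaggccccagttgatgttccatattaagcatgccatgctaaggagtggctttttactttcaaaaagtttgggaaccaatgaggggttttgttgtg
XLOC_016700 far edge: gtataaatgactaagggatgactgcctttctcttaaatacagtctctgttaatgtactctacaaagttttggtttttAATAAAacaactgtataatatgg
XLOC_000604 far edge: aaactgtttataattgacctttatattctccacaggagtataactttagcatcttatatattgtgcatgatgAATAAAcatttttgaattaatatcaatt
In the last 2 lines the signal stops 17 and 22 bases short of the edge. The strand of an unannotated locus is not in the table, so the strand shown follows from the position of the gene and not from the reads.

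The members were weakly expressed, and their levels were higher in every treated group than in its control. The median member had 0.880 FPKM in LALA nuclear RNA and 0.719 FPKM in siPAP nuclear RNA, against 0.395 FPKM in control nuclear RNA. In total RNA the median was 0.572 FPKM in siPAP cells, against 0.343 FPKM in control cells. The largest of the 5 values was in LALA nuclear RNA for 668 members, in siPAP nuclear RNA for 314, in siPAP total RNA for 80, in control nuclear RNA for 61 and in control total RNA for 41. Named autosomal loci had medians of 10.1 FPKM in LALA nuclear RNA and 10.5 FPKM in siPAP nuclear RNA, against 11.0 FPKM in control nuclear RNA.

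In LALA nuclear RNA, 291 of the 1138 members with a ratio to control nuclear RNA were called higher (25.6%), beside 6.54% of all autosomal loci. The median log2 ratio of the members was 1.22, a 2.33-fold difference. In siPAP nuclear RNA, 215 of 1134 members were called higher than in control nuclear RNA (19.0%), beside 5.68% of all autosomal loci, with a median log2 ratio of 0.86. In siPAP total RNA, 150 of 1123 members were called higher than in control total RNA (13.4%), beside 4.39% of all autosomal loci, with a median log2 ratio of 0.80. The loci called lower were 14 members in each comparison. They made up 1.23% of members in LALA nuclear RNA, 1.23% in siPAP nuclear RNA and 1.25% in siPAP total RNA, beside 0.539%, 1.70% and 1.28% of all autosomal loci in the same order. Since the rule used these same FPKM values, the shares describe the members and support nothing by themselves. Both nuclear comparisons share the control nuclear libraries.

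The choice of the members by their highest group favours loci that are high after treatment. Of the members, 650 reached 0.5 FPKM in a treated group and in neither control group, and 19 did so in a control group and in no treated group. Among members with at least 0.5 FPKM in the control group of the comparison, the median log2 ratio was 0.45 in LALA nuclear RNA (466 loci), 0.43 in siPAP nuclear RNA (465 loci) and 0.26 in siPAP total RNA (407 loci), and 29.0%, 28.8% and 22.4% were called higher. This choice favours the opposite direction. With no FPKM minimum, the median log2 ratios of the near-gene loci were 1.18, 0.77 and 0.71 in the same order.

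**Figure D1:**
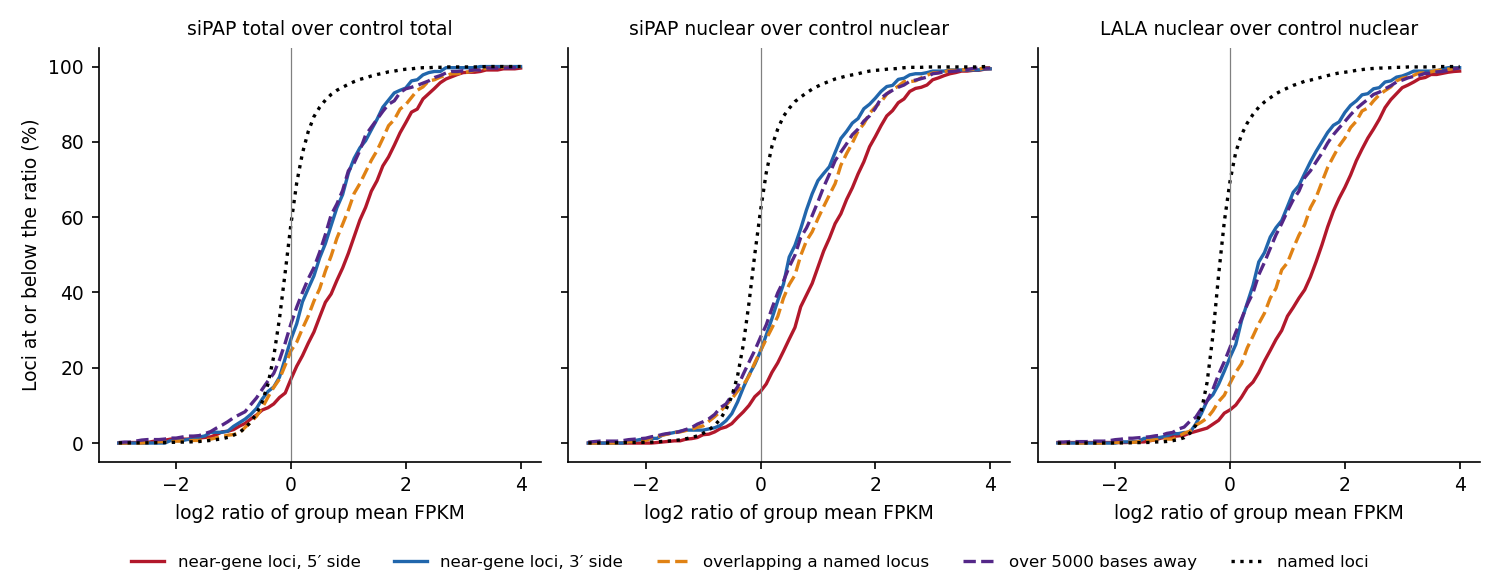
Cumulative distributions of the log2 ratio of group mean FPKM (x axis) in the 3 comparisons, as the percentage of loci at or below each ratio (y axis). The near-gene loci are split by the side of the gene they lie on, and the curve of those at the 5′ side lies farthest to the right in each panel, with medians of 0.99, 1.08 and 1.54, while named loci centre near 0.

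The other unannotated loci were also higher after treatment, and named loci were not. Loci that overlap a named locus had median log2 ratios of 1.04 in LALA nuclear RNA, 0.70 in siPAP nuclear RNA and 0.70 in siPAP total RNA. Loci beyond 5000 bases of any named locus had medians of 0.67, 0.60 and 0.48 in the same order. Named autosomal loci had medians of -0.16, -0.10 and -0.06, and 3.60%, 3.47% and 2.86% of them were called higher. All these sets passed the same 0.5 FPKM rule, which favours loci that are high after treatment. The median control nuclear level was 0.495 FPKM for overlapping loci and 0.512 FPKM for loci beyond 5000 bases, against 11.0 FPKM for named loci. Medians among loci with at least 0.5 FPKM in the control group were not computed for these sets.

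The ratios differed with position relative to the gene. The nearest named locus has a strand in GENCODE for 1025 members, and 699 of these (68.2%) lie at its 5′ side and 326 at its 3′ side. The other 139 have a neighbour with no matching GENCODE gene. Members at the 5′ side lie nearer to the gene, with a median gap of 155 bases, against 594 bases at the 3′ side, and 70.0% against 47.5% lie less than 500 bases away. At the 5′ side 31.5% of members were called higher in LALA nuclear RNA, 22.2% in siPAP nuclear RNA and 15.5% in siPAP total RNA. At the 3′ side 15.3%, 12.2% and 8.25% were called higher. The median log2 ratios were 1.54, 1.08 and 0.99 at the 5′ side, against 0.58, 0.53 and 0.51 at the 3′ side. Among members with at least 0.5 FPKM in the control group, the medians were 0.77, 0.62 and 0.35 at the 5′ side, against 0.18, 0.20 and 0.18 at the 3′ side. A locus at the 3′ side of one gene can lie near the promoter of another. Of the members with a single named locus within 5000 bases, 478 lie at its 5′ side and 165 at its 3′ side. The median log2 ratio of these in LALA nuclear RNA was 1.55 at the 5′ side, against 0.38 at the 3′ side.

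The ratios at the 5′ side also varied with distance, most clearly in LALA nuclear RNA. Of the 5′ members within 99 bases of the gene, 41.5% were called higher in LALA nuclear RNA, with a median log2 ratio of 1.65 over 258 loci. Of those 2000 to 5000 bases away, 21.3% were called higher, with a median of 0.97 over 89 loci. In siPAP total RNA the medians of these 2 classes were 1.02 and 0.86. At the 3′ side the 60 members within 99 bases had a median of 0.86 in LALA nuclear RNA, and the 96 members at 2000 to 5000 bases had a median of 0.41. The quartiles of neighbouring distance classes overlap throughout.

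**Figure D2:**
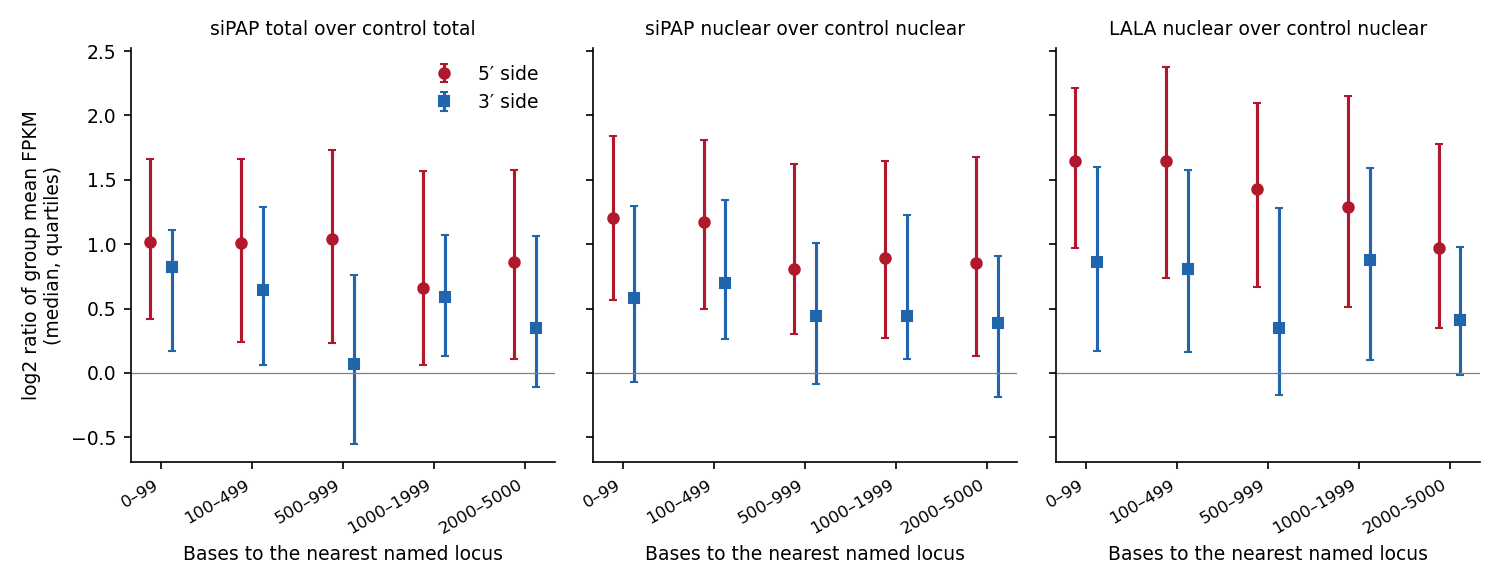
Median log2 ratio of group mean FPKM (y axis) by distance to the nearest named locus in bases (x axis), with bars from the lower to the upper quartile over loci, for members at the 5′ side (circles) and the 3′ side (squares). The 5′ medians exceed the 3′ medians in all distance classes, and in LALA nuclear RNA the 5′ median is 1.65 for loci within 99 bases and 0.97 for loci at 2000 to 5000 bases.

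Of the 1104 members with a ratio in all 3 comparisons, 111 were called higher in all 3 (10.1%), beside 2.67% of all autosomal loci, and 82 of the 111 lie at the 5′ side. The 2 members called lower in all 3 make up 0.181%, beside 0.0442% of all autosomal loci. The comparisons in total and in nuclear siPAP RNA have separate control libraries. They shared 132 members called higher, which are 88.0% of those called in total RNA and 61.4% of those called in nuclear RNA, beside 80.3% and 62.0% over all autosomal loci. Another 127 members were called higher in LALA nuclear RNA alone (11.2%), beside 2.67% of all autosomal loci.

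The 12 members named here had the largest median log2 ratio among those called higher in all 3 comparisons, and 10 of these lie at the 5′ side of a gene. XLOC_010804, whose edges are printed above, had 6.34 FPKM in LALA nuclear RNA and 13.7 FPKM in siPAP nuclear RNA, against 1.80 FPKM in control nuclear RNA. It had 9.83 FPKM in siPAP total RNA, against 1.6 FPKM in control total RNA, a 6.16-fold difference. All 3 treated means of this locus were thus at least 3.53-fold above the control. Its neighbour UQCRC2 had 73.6 FPKM in LALA nuclear RNA and 78.0 FPKM in siPAP nuclear RNA, against 91.4 FPKM in control nuclear RNA.

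XLOC_004978, upstream of HSPA8, had 5.22 FPKM in LALA nuclear RNA and 6.16 FPKM in siPAP nuclear RNA, against 0.770 FPKM in control nuclear RNA. In total RNA it had 3.50 FPKM in siPAP cells, against 0.937 FPKM in control cells. HSPA8 itself differed by no more than 1.11-fold in any comparison, at 1074 FPKM in LALA nuclear RNA and 1162 FPKM in siPAP nuclear RNA, against 1163 FPKM in control nuclear RNA. XLOC_028088 lies 138 bases upstream of RNF139, a ubiquitin ligase of the endoplasmic reticulum, and GENCODE release 44 names it RNF139-DT, a divergent transcript. It had 15.1 FPKM in LALA nuclear RNA and 18.7 FPKM in siPAP nuclear RNA, against 2.70 FPKM in control nuclear RNA, and 14.0 FPKM in siPAP total RNA, against 2.51 FPKM in control total RNA. RNF139 had 24.5 and 27.4 FPKM in LALA and siPAP nuclear RNA, against 26.8 FPKM in control nuclear RNA.

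XLOC_016815 abuts the 5′ end of HNRNPA3, an RNA-binding protein of the hnRNP family, with no base between them. It had 2.16 FPKM in LALA nuclear RNA and 2.32 FPKM in siPAP nuclear RNA, against 0.360 FPKM in control nuclear RNA, while HNRNPA3 had 180.3 FPKM in LALA nuclear RNA and 208 FPKM in siPAP nuclear RNA, against 208 FPKM in control nuclear RNA. XLOC_027006, upstream of BPGM, which makes the haemoglobin effector bisphosphoglycerate, had 5.78 FPKM in LALA nuclear RNA and 5.30 FPKM in siPAP nuclear RNA, against 0.873 FPKM in control nuclear RNA. XLOC_007636, upstream of ANKRD10, was 6.62-fold higher in LALA nuclear RNA, 9.22-fold higher in siPAP nuclear RNA and 5.75-fold higher in siPAP total RNA than in their controls.

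The largest median ratio belonged to the one locus of the 12 at a 3′ side, and this rank rests on a control nuclear mean close to 0. With a pseudocount of 0.1 FPKM the log2 ratio of XLOC_006662 was 2.88 in LALA nuclear RNA and 3.34 in siPAP nuclear RNA, against 3.49 and 4.06 for XLOC_027144 near SPDYE5, which then ranked above it. XLOC_006662 lies 491 bases past the 3′ end of NCAPD2, a condensin subunit, and GENCODE release 44 annotates the region as GAPDH-DT, the divergent transcript of the next gene. It had 1.06 FPKM in LALA nuclear RNA and 1.49 FPKM in siPAP nuclear RNA, against 0.0570 FPKM in control nuclear RNA, and 1.80 FPKM in siPAP total RNA, against 0.443 FPKM in control total RNA. XLOC_013888 has no assigned side, lies within CARD8, an inflammasome regulator, in the newer annotation, and was 10.6-fold higher in LALA nuclear RNA. XLOC_014332, 1380 bases upstream of the locus named CD70, a TNF-family ligand, is part of CD70 in the newer annotation. It had 3.72 FPKM in LALA nuclear RNA and 2.25 FPKM in siPAP nuclear RNA, against 0.390 FPKM in control nuclear RNA. The locus named CD70 had 2.18 FPKM in LALA nuclear RNA and 0.501 FPKM in siPAP nuclear RNA, against 1.74 FPKM in control nuclear RNA, so in siPAP nuclear RNA it was lower where XLOC_014332 was higher. XLOC_027144 near SPDYE5, XLOC_020495 near SDHAP2 and XLOC_010747 near PDXDC1 stand beside members of duplicated gene families, so reads may be split among copies. They were 12.4-fold, 11.1-fold and 6.37-fold higher in LALA nuclear RNA.

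**Figure D3:**
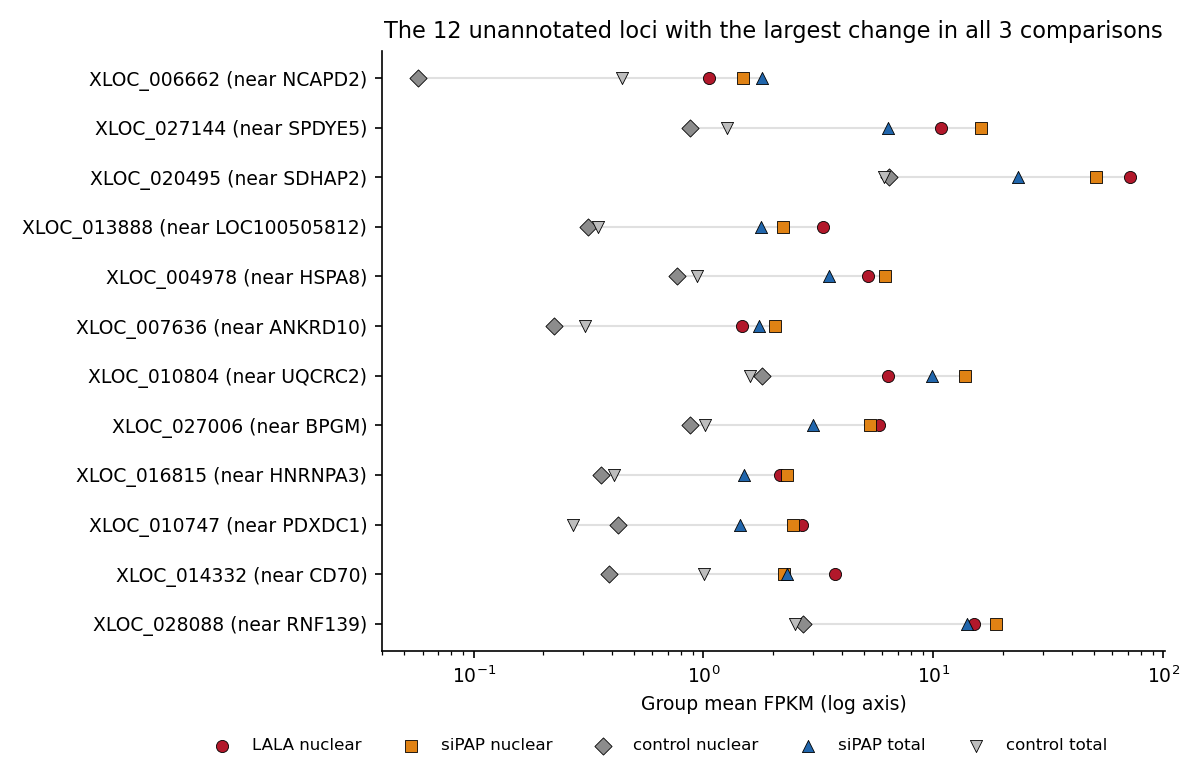
Group mean FPKM (x axis, log scale) of the 12 members with the largest change in all 3 comparisons, 1 row per locus with its nearest named gene, and 1 symbol per group. In each row the 3 treated groups lie to the right of both control groups, from 2.30-fold to 26.0-fold above the matching control.

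The genes beside the members were centred near no change. Pairs were kept where the nearest named locus, the neighbour, reached 0.5 FPKM in at least 1 group. Over 1059 such pairs with a ratio in LALA nuclear RNA, the median log2 ratio was 1.22 for members and -0.17 for neighbours. In siPAP nuclear RNA it was 0.85 for the member and -0.08 for the neighbour over 1055 pairs, and in siPAP total RNA 0.78 and -0.05 over 1042 pairs. In LALA nuclear RNA 273 members of these pairs were called higher (25.8%), against 21 of the neighbours (1.98%). Both were called in 9 pairs. The corresponding counts were 197 (18.7%), 28 (2.65%) and 7 in siPAP nuclear RNA. In siPAP total RNA they were 138 (13.2%), 14 (1.34%) and 1. Of all named autosomal loci, 3.60%, 3.47% and 2.86% were called higher, in the same order. The correlation between the 2 ratios across pairs was weak, with Pearson's r of 0.06, 0.03 and 0.04 and Spearman's rho of 0.04, 0.05 and 0.04 in LALA nuclear, siPAP nuclear and siPAP total RNA. At the 3′ side r was 0.20, 0.12 and 0.06 and rho 0.17, 0.16 and 0.08, in the same order. At the 5′ side r was 0.05, -0.02 and 0.06 and rho 0.04, 0.01 and 0.05. The points of each plot share the same 2 group means per locus and hence the same libraries, and 1032 distinct neighbours serve the 1164 members.

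**Figure D4:**
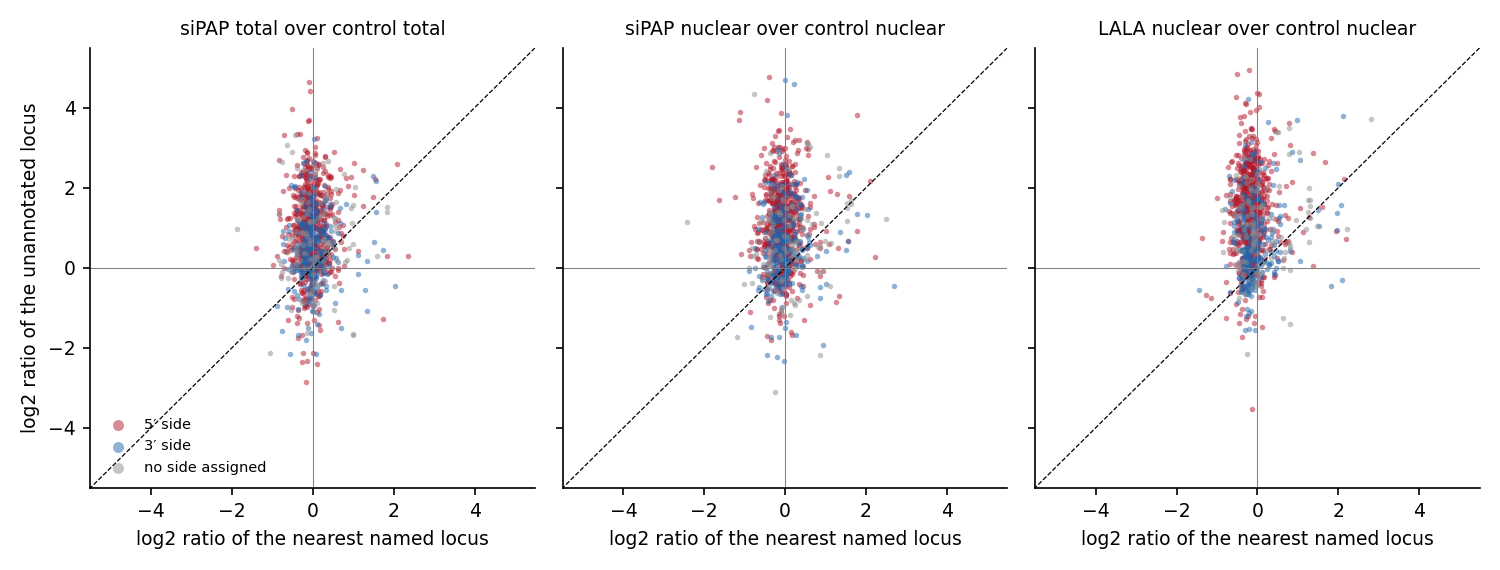
Log2 ratio of each unannotated locus (y axis) against that of its nearest named locus (x axis) in the 3 comparisons, 1 point per pair, coloured by the side of the gene, with the line of equal ratios dashed. The points form a column around a neighbour ratio of 0 that reaches upwards, with member medians of 0.78, 0.85 and 1.22. Pairs whose named locus stayed below 0.5 FPKM in all groups are left out.

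The ratio of LALA to siPAP nuclear RNA was larger at the 5′ side than at the 3′ side. The median log2 ratio of LALA nuclear over siPAP nuclear RNA was 0.26 over 1154 members. It was 0.32 at the 5′ side, 0.07 at the 3′ side and -0.06 for named autosomal loci. The rule favours LALA here, because 249 members reached 0.5 FPKM in LALA nuclear RNA only and 54 in siPAP nuclear RNA only. Among members with at least 0.5 FPKM in control nuclear RNA, the log2 medians over control were 0.45 in LALA and 0.43 in siPAP nuclear RNA. At the 5′ side they were 0.77 and 0.62, and at the 3′ side 0.18 and 0.20. At least 2-fold higher in LALA nuclear RNA were 77 members (6.67%), beside 2.43% of all autosomal loci, and 30 were at least 2-fold lower (2.60%), beside 1.06% of all autosomal loci. The largest difference towards LALA was at XLOC_000880, 2461 bases upstream of MCL1, an anti-apoptotic BCL2 relative. It had 1.87 FPKM in LALA nuclear RNA and 0.0926 FPKM in siPAP nuclear RNA, against 0.175 FPKM in control nuclear RNA. XLOC_012478 near UBE2Z, XLOC_007009 near COQ10A and XLOC_001405 near TBCE had 1.45, 3.15 and 3.65 FPKM in LALA nuclear RNA, against 0.311, 0.725 and 0.772 FPKM in control nuclear RNA. All 3 were below their control in siPAP nuclear RNA, at 0.126, 0.521 and 0.607 FPKM. In siPAP total RNA, in contrast, XLOC_007009 was called higher, with 1.20 FPKM against 0.540 FPKM in control total RNA, XLOC_001405 was 1.66-fold and XLOC_000880 2.22-fold of control without being called, and XLOC_012478 was 0.994-fold. In the other direction, 3 of the 4 loci with the largest difference are under 300 bases long. The fourth, XLOC_011483 near DUSP14, a phosphatase, had 0.339 FPKM in LALA nuclear RNA and 1.88 FPKM in siPAP nuclear RNA, against 0.783 FPKM in control nuclear RNA.

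In control cells the members were slightly more abundant in the nuclear fraction than in total RNA. The median log2 ratio of control nuclear over control total RNA was 0.16 over the 367 members with at least 0.5 FPKM in both, against -0.03 for named autosomal loci. It was 0.16 at the 5′ side, 0.22 at the 3′ side and 0.27 for the 66 members called higher in all 3 comparisons. The other unannotated loci had similar medians, 0.13 where they overlap a named locus and 0.11 beyond 5000 bases. Of the 367, 18 were at least 2-fold higher in the nuclear fraction (4.90%), beside 0.915% of all autosomal loci, and 8 at least 2-fold lower (2.18%), beside 0.372%. The shares were 5.33% in both directions for unannotated loci beyond 5000 bases. XLOC_002235 near FAM72B had 25.4 FPKM in control nuclear RNA, against 7.97 FPKM in control total RNA, and lies in a duplicated region. XLOC_014739, upstream of the locus named ZNF574, had 3.41 FPKM in control nuclear RNA, against 1.03 FPKM in control total RNA. At the other end, XLOC_014439 near ZNF443 had 1.01 FPKM in control nuclear RNA, against 3.9 FPKM in control total RNA, and XLOC_025994 had 3.11 FPKM in control nuclear RNA, against 6.56 FPKM in control total RNA. XLOC_000797 and XLOC_001637, which complete the 4 highest, and XLOC_024228 and XLOC_013685, which complete the 4 lowest, are all under 300 bases long.

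Few members were called lower. In all, 32 were called lower in at least 1 comparison (2.77%), close to the 2.62% of all autosomal loci. Of these, 5 are under 300 bases long, and 3 members were called higher in 1 comparison and lower in another. XLOC_014268, 2249 bases past the 3′ end of the zinc finger gene ZNF57, was lower in all 3, with 1.37 FPKM in LALA nuclear RNA and 0.804 FPKM in siPAP nuclear RNA, against 4.04 FPKM in control nuclear RNA. The other was XLOC_003261 near PAPSS2, a sulfate donor synthase, with 0.914 FPKM in LALA nuclear RNA and 0.937 FPKM in siPAP nuclear RNA, against 2.09 FPKM in control nuclear RNA. Its locus is shared with another assembled gene. XLOC_021745 near PAPD7 had 1.07 FPKM in LALA nuclear RNA and 0.555 FPKM in siPAP nuclear RNA, against 4.74 FPKM in control nuclear RNA, and the newer annotation counts it as part of that gene under the name TENT4A, a noncanonical poly(A) polymerase. XLOC_007266, 289 bases long and 63 bases from MED13L, a Mediator kinase-module subunit, had 1.77 FPKM in LALA nuclear RNA and 8.95 FPKM in siPAP nuclear RNA, against 20.5 FPKM in control nuclear RNA. XLOC_028920 near APTX, a DNA repair enzyme, was 0.228-fold of control in siPAP total RNA. In siPAP nuclear and LALA nuclear RNA it was 1.27-fold and 1.14-fold of control. XLOC_000565 near LRRC7 was 0.311-fold of control in siPAP total RNA and 0.222-fold in siPAP nuclear RNA. The newer annotation also counts XLOC_007266, XLOC_028920 and XLOC_000565 as part of the neighbour. XLOC_023366 near ABCC10, a transporter, was 0.212-fold of control in siPAP nuclear RNA, 0.477-fold in siPAP total RNA and 1.00-fold in LALA nuclear RNA. XLOC_009480 near MCTP2, 107 bases long, was 0.267-fold of control in LALA nuclear RNA and 1.83-fold in siPAP nuclear RNA.

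Very short loci held the highest FPKM values. FPKM divides the fragment count by length, so values at such small lengths cannot be read as levels of abundant transcripts. The fragment counts are unknown, and the cause of the high values was not tested. The 6 members with the highest control total FPKM are 64 to 117 bases long. The highest, XLOC_027198 near FAM86B1, is 64 bases long and is listed at 784270 FPKM in siPAP total RNA, against 76742 FPKM in control total RNA. XLOC_017637 is 91 bases long and listed at 24365 FPKM in siPAP total RNA, against 29297 FPKM in control total RNA, and XLOC_005608 is listed at 0 in LALA nuclear RNA and in control nuclear RNA. All 12 members over 100 FPKM are under 300 bases, and only 18 members are that short. Among the members of at least 300 bases, the highest control total value was 37.1 FPKM at XLOC_010486, 754 bases past the 3′ end of ZFHX3, a transcription factor gene, which had 38.2 FPKM in siPAP total RNA. Over all members the length ran from 64 to 422856 bases with a median of 1988.

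A newer annotation covers many of the members. GENCODE release 44 has no gene over most of the locus for 470 members (40.4%), an lncRNA for 385 (33.1%) and a protein-coding gene for 258 (22.2%). Of the members at the 5′ side with such a gene, 279 of 405 (68.9%) carry it on the strand opposite to the neighbour, and at the 3′ side 78 of 198 (39.4%) do. Divergent transcripts by name number 87, of which 60 are named after the nearest named locus. These 87 had a median log2 ratio of 1.56 in LALA nuclear RNA, 1.15 in siPAP nuclear RNA and 0.98 in siPAP total RNA. At the 5′ side, the median in LALA nuclear RNA was 1.5 where the GENCODE gene lies on the strand opposite to the neighbour. It was 1.03 for the 126 loci where that gene lies on the same strand. Such a gene can be the neighbour itself, as at XLOC_014332, and the strand of the locus is not known. The loci under protein-coding genes had a median of 0.70 in LALA nuclear RNA, against 1.40 for the loci with no gene.

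The edges of all members of at least 600 bases were searched as were those printed above. At the 5′ side the 300 bases next to the gene had a median GC content of 56.7%, against 42.3% in the 300 bases at the far edge, over 654 loci. The ratio of observed to expected CpG was 0.685 at the near edge, against 0.257 at the far edge. At the 3′ side the near edge had a GC content of 47.0% and a CpG ratio of 0.303 over 309 loci. The 5′ edges of named loci had 66.0% and 0.800. Among the 5′ members, those called higher in all 3 comparisons had a near-edge CpG ratio of 0.746 (76 loci), against 0.667 for the rest (578 loci). The 3′ members differed in the same direction, with 0.388 (19 loci) against 0.302 (290 loci).

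Poly(A) signals were rarer at the far edges than at the 3′ edges of named loci. AATAAA or ATTAAA lay within the outermost 50 bases on the strand running away from the gene at 11.0% of the 654 5′ members and 11.7% of the 309 3′ members, against 51.0% of the 3′ edges of 12194 named loci on their own strand. On the opposite strand of the same bases the share was 8.56% at the 5′ members, 6.47% at the 3′ members and 10.3% at named loci. Loci that overlap a named locus held a signal at 22.4% of their edges, both ends counted, and loci beyond 5000 bases at 7.88%. Over the full 300 bases the share was 41.9% at the 5′ members and 68.1% at named loci. The 5′ members with a signal in the outermost 50 bases had a median log2 ratio of 1.81 in LALA nuclear RNA (69 loci), against 1.52 for those without (575 loci), and 40.6% against 29.7% were called higher. In siPAP total RNA the medians were 1.28 with a signal, against 0.96 without. At the 3′ side the median log2 ratios with a signal were 0.70, 0.67 and 0.59 in LALA nuclear, siPAP nuclear and siPAP total RNA. Without a signal they were 0.56, 0.49 and 0.52. The shares called higher there were 11.4% of 35 loci, 8.57% and 8.57% with a signal. They were 15.5% of 271 loci, 12.2% and 8.27% without, in the same order. The shares with a signal rest on 4, 3 and 3 called loci. Of the loci printed with a signal, XLOC_016700 had 1.22 FPKM in LALA nuclear RNA and 1.59 FPKM in siPAP nuclear RNA, against 0.35 FPKM in control nuclear RNA. XLOC_000604 had 1.65 FPKM in LALA nuclear RNA and 1.31 FPKM in siPAP nuclear RNA, against 0.367 FPKM in control nuclear RNA. Both were at least 3.50-fold above control in each comparison. The 5′ splice site sequence GTAAGT occurred in 3.06% of the 300-base near edges of the 5′ members on the strand running away. At the 5′ edges of named loci, on their own strand, it occurred in 5.15%. On the opposite strand of the same bases the shares were 3.52% and 1.95%, in the same order. The locus bounds are those of the assembly and need not be the exact ends of transcripts, and a match is a description only.

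**Figure D5:**
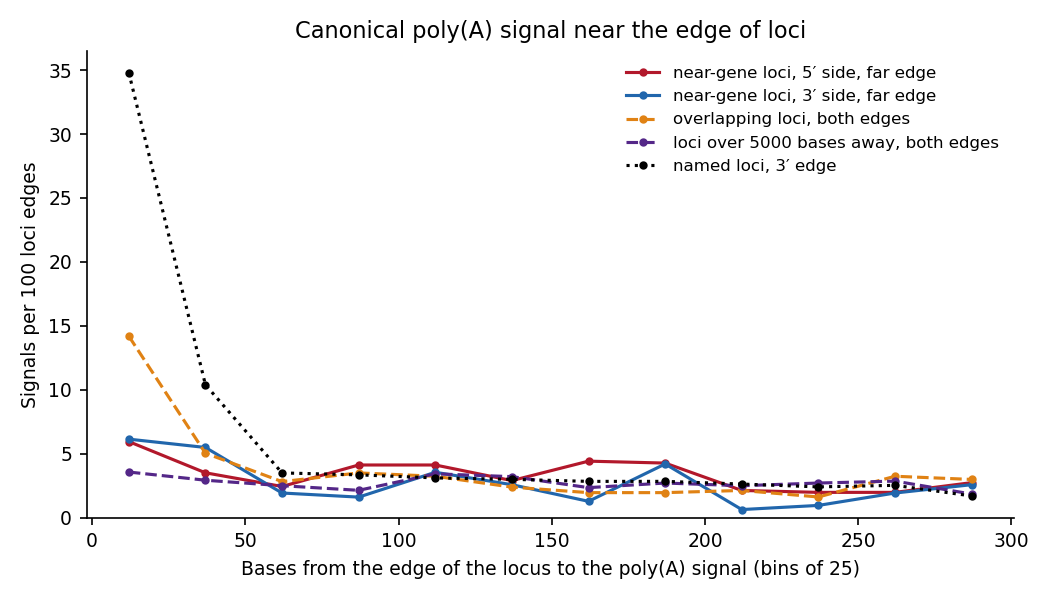
Number of AATAAA motifs per 100 edges (y axis) by distance from the edge of the locus in bins of 25 bases (x axis), on the strand that leaves the locus at that edge. The 3′ edges of named loci hold 34.8 motifs per 100 in the outermost bin, against 5.96 at the far edges of 5′ members and 6.15 at those of 3′ members.

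The known genes of nuclear poly(A) tail decay had median log2 ratios of -0.16 in LALA nuclear, -0.08 in siPAP nuclear and -0.11 in siPAP total RNA. Of 25 genes for the poly(A) polymerases, PABPN1, the nuclear exosome and its cofactors, 2 were called lower in siPAP total RNA and 2 in siPAP nuclear RNA, in both cases PAPOLA and PAPOLG, and 0 in LALA nuclear RNA. None was called higher, beside 6.54% of all autosomal loci in LALA nuclear, 5.68% in siPAP nuclear and 4.39% in siPAP total RNA. The shares of all autosomal loci called lower were 0.539%, 1.70% and 1.28% in that order. A second locus named EXOSC4, an exosome subunit, was 3.52-fold, 3.07-fold and 2.14-fold of control in that order. It stayed below 1 FPKM in all groups and could not be called. ZFC3H1, a scaffold of exosome targeting, had 41.5 FPKM in LALA nuclear RNA and 49.9 FPKM in siPAP nuclear RNA, against 25.3 FPKM in control nuclear RNA, a 1.64-fold and a 1.98-fold difference.

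At the limits of the rule, the 2 members farthest from a named locus were XLOC_007980 at 4982 bases and XLOC_023719 at 4972 bases. Their LALA nuclear ratios were 0.626-fold and 3.13-fold, and the newer annotation counts XLOC_023719 as part of its neighbour TIAM2. Just outside were XLOC_018033 at 5006 bases and XLOC_012394 at 5014 bases, with 1.07-fold and 11.7-fold. The members with the lowest maxima, XLOC_023420 at 0.5011 FPKM and XLOC_021476 at 0.5025 FPKM, were 2.99-fold and 1.49-fold of control in LALA nuclear RNA. The loci just below the limit, XLOC_023918 at 0.4995 FPKM and XLOC_022408 at 0.4994 FPKM, were 5.27-fold and 0.413-fold.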

How the data were processed

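The authors made stranded mRNA libraries from HEK293 RNA, mapped the read pairs to hg19 (TopHat2), built transcript models with Cufflinks under the guidance of known annotation, and compared the groups with Cuffdiff. The deposited table holds, for each assembled gene and each of 10 pairs of groups, the mean FPKM of both groups. It also holds the authors' own log2 fold change, test statistic, p-value, q-value and significance call, none of which was used. The submitters' notes also name edgeR, which was not used here. Read numbers are unknown for these libraries, so no interval or detection limit was computed.

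Here the group means were read with Python 3.11.15 and pandas 2.3.3. Ratios are mean over mean with no pseudocount. No test was run, because the table gives no values of single libraries and loci are not replicates. A locus counts as called at 2-fold or more where the larger mean is 1 FPKM or above, and the background share is over all autosomal loci with at least 0.5 FPKM in any group. Gaps are the bases between locus bounds. The strand of the nearest named locus came from GENCODE release 44 on GRCh37 by current or older symbol, where it overlapped the locus. As a check of the build, 99.9% of 11699 named loci overlapped the GENCODE gene of the same name. Windows of 300 bases at each edge came from the GRCh37 sequence. From the list of genes of nuclear poly(A) decay, MPP6 was dropped after its values were seen, because the locus of that name is PALS2 on chromosome 7 and not the exosome cofactor. The functions were tested on simulated data.

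The members, lists and named loci were chosen with earlier results of these data known. Named loci are the 12 with the largest median log2 ratio among those called higher in all 3 comparisons, the 6 highest in control total RNA, the 4 lowest ratios per comparison among those called lower, the 4 largest differences between LALA and siPAP in each direction, the 4 highest and 4 lowest nuclear to total ratios, 2 on each side of both limits, their neighbours, and PAPOLA, PAPOLG and PABPN1. The loci XLOC_010486, XLOC_016700 and XLOC_000604 and the gene ZFC3H1 were added after their values were seen. Alternatives were other pseudocounts, FPKM minimums, distances, folds and a scaling to named loci, and, chosen after seeing the data, the locus length and shared loci.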

Additional observations from a re-analysis of the deposited data

How the results depend on the processing

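No median changed sign under any alternative. Values follow the order siPAP total, siPAP nuclear, LALA nuclear, each over its control, and are given where they left the 95% binomial interval over loci, which covers the number of loci only. With a pseudocount of 1 FPKM, 4.47%, 7.39% and 10.8% of members were called higher, 0.601%, 0.515% and 0.515% lower, and the medians were 0.22, 0.28 and 0.42. With 0.1 FPKM the medians were 0.62, 0.71 and 1.06. With no FPKM minimum, 6.99%, 9.83% and 13.2% were higher and 0.652%, 0.640% and 0.634% lower, with medians of 0.71 and 0.77 in siPAP. With at least 1 FPKM in any group, 27.3%, 39.1% and 52.9% were higher and 2.55% lower in each. With at least 0.5 FPKM in the control group, 22.4%, 28.8% and 29.0% were higher and 3.44%, 3.01% and 3.0% lower, with medians of 0.26, 0.43 and 0.45. With a mean over groups of at least 0.5 FPKM, 22.4%, 31.9% and 40.4% were higher and 2.09% lower in each, with a LALA median of 0.97. Within 1000 bases, 15.7%, 22.0% and 30.3% were higher, the medians were 0.90, 0.98 and 1.42, and 0.614% were lower in LALA. At 1.5-fold, 17.3%, 23.4% and 30.9% were higher and 2.94%, 2.29% and 2.37% lower. At 3-fold, 7.75%, 10.8% and 17.6% were higher and 0.356%, 0.529% and 0.264% lower. Scaling to named loci with at least 1 FPKM in both groups, whose medians were -0.07, -0.11 and -0.19, gave medians of 0.97 for siPAP nuclear RNA and 1.41 for LALA, with 28.4% higher in LALA. The share of members at the 5′ side was 74.3% with a single named locus in reach and 74.1% within 1000 bases. The FPKM minimums change which loci are kept, and the folds change which of them are called. For the rest the cause was not tested. A distance of 10000 bases, members of at least 300 bases and unshared loci moved no value out of its interval. Of 131 ratios of named loci, 7 moved by over 1.5-fold with 0.1 FPKM and 57 with 1 FPKM. A pseudocount added to both means cannot reverse a ratio, so it did not test the direction. No paired analysis was possible because the table holds group means only, and no library could be left out.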
